A study of Mus musculus with 6 samples.

Results

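The Notch pathway of the intestinal epithelium was followed through 9 genes: the receptors Notch1 and Notch2, the ligands Jag1, Jag2, Dll1 and Dll4, the Notch-induced genes Hes1 and Nrarp, and Atoh1. They were taken by gene symbol from a table of 24594 genes, and all 9 were among the 12592 genes expressed highly enough to be tested. The organoids came from mouse small intestine, grown from single cells for 96 h until crypts and villus-like domains had formed. NIBR-LTSi, known as an inhibitor of the Hippo kinases LATS1 and LATS2, was then given at 5 uM for 24 h to 1 group of 3 libraries, and the solvent DMSO in matching amount to the other group of 3. The labels name no strain, sex, age or genotype, and leave it unsaid if the replicates came from different cultures. The tests therefore measure the spread between these libraries, which may be technical.

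Notch is a receptor that a ligand on a neighbouring cell activates. Ligand binding lets the ADAM proteases and then gamma-secretase cut the receptor, and the freed intracellular domain joins RBPJ and a Mastermind protein on DNA to switch on genes such as Hes1. In the gut, Notch-active progenitors become absorptive cells because HES1 represses Atoh1, the factor that commits a cell to the secretory lineages. Cells that escape this repression express Delta ligands and signal to their neighbours, and Paneth cells supply Notch ligands to the stem cells at the crypt base.

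Total counts ranged from 18395427 to 26767043 per library. The first principal component of log2 CPM (counts per 1000000, scaled by TMM factors) accounted for 51.3% of the variance, and the groups lay apart on it. On the second (31.2%) the libraries of each group were spread, and NIBR-LTSi replicate 1 had the highest value. Summed markers of enterocytes, goblet, enteroendocrine and Paneth cells were abundant in both groups. Tuft cell markers were not, with sums of 3.97 to 4.49 CPM with DMSO and 3.46 to 4.87 CPM with NIBR-LTSi. Of 5 endothelial markers, Cdh5, Kdr and Emcn had no count in any library, and the 6 mesenchymal markers had under 10 counts each in all 6 libraries together. Of 5 immune markers, Cd3e was at 0 and Ptprc had 3 counts, while the macrophage-associated genes Csf1r and Cd68 had 273 and 223. A count of 0 allows up to 3 counts, or 0.112 to 0.163 CPM per library, for counting error only. In bulk RNA, fewer cells of a type and less RNA per cell cannot be told apart.

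Promoter sequences are shown for the Delta ligand genes, which moved in opposite directions, for Nrarp, which fell, and for Atoh1, the gene that HES1 represses. They come from RefSeq (build GRCm38.p6), and 8 of the 9 genes, all but Hes1, were matched in the promoter table used. Each is the 250 bases before a transcription start, 5′ to 3′ on the gene's strand. Capitals mark the letters CACGCG, a core bound by HES1 (CGCGTG on the other strand), or CAGCTG, an E-box core bound by ATOH1, which reads the same on both strands. The cores TGGGAA of RBPJ and CATTCC of the TEAD factors (TTCCCA and GGAATG on the other strand) were searched as well.
Dll1 (minus strand, chr17:15376933-15377182, the more upstream of its 2 starts): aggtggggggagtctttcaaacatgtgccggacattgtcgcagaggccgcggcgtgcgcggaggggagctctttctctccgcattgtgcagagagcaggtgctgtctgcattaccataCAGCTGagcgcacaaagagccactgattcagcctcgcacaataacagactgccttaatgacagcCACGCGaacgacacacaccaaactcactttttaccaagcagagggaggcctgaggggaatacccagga
Dll4 (plus strand, chr2:119325534-119325783): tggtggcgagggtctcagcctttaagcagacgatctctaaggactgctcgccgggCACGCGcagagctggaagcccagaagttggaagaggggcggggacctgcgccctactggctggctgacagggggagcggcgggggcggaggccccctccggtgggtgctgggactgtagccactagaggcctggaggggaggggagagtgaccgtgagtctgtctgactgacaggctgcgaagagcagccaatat
Nrarp (plus strand, chr2:25180508-25180757): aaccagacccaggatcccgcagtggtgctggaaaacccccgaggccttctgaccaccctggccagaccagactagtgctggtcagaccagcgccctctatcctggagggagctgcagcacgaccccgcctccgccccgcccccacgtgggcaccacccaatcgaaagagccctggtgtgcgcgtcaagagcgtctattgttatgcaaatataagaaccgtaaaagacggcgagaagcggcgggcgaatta
Atoh1 (plus strand, chr6:64728875-64729124): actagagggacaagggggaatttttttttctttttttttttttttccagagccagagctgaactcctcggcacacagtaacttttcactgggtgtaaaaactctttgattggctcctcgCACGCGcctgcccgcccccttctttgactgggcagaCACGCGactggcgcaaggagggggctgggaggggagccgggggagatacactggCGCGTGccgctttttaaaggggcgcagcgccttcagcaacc
Atoh1 held 3 HES1 cores, 131, 95 and 41 bases before its start. Among 32851 promoter windows of this length, 7.62% held at least 1 and 1.27% held 2 or more. Dll4 held 1 HES1 core 195 bases before its start. The printed window of Dll1 held 1 at 68 bases and an ATOH1 core at 132 bases, a core found in 13% of windows. The window of the other Dll1 start held none of the 4 cores. The end of that promoter entry lay in a GENCODE M21 transcript of Dll1, and the end of the printed one did not. Nrarp held none of the 4 cores. Of the windows not printed, Jag1 held 2 HES1 cores and 1 ATOH1 core, and Notch2 held 1 HES1 core. The Jag2 window held none of the 4 cores. No RBPJ core, present in 21.6% of windows, lay in any of the 9 windows of these 8 genes, and the TEAD core (12.6% of windows) lay in that of Notch1 alone, 233 and 216 bases before the start. No matches overlapped one another. A match describes these letters only, and says nothing of binding in these organoids.

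The largest changes were in the ligand genes Jag2, Dll4 and Jag1. With NIBR-LTSi, Jag2, Jag1 and Dll1 rose and Dll4 fell, Nrarp fell, and Hes1, Atoh1, Notch1 and Notch2 were not called. Thus 3 of the 9 genes rose, beside 22.8% of all tested genes, and 2 fell, beside 19.2%. Calls are an adjusted p under 0.05 in the edgeR quasi-likelihood test, with Benjamini-Hochberg adjustment over all tested genes. The median log2 fold change (log2FC, NIBR-LTSi over DMSO) was 0.21 over the 9 genes and 0.02 over all tested genes. In 5 of the 9 the libraries of the groups did not overlap, beside 52.5% of all tested genes, so this share was near the background. In 3 of them NIBR-LTSi lay above (28.0% of all tested genes) and in 2 below (24.5%). When DMSO replicate 3 was left out, 5 members were higher, because Notch1 and Notch2 were then called.

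**Figure D1:**
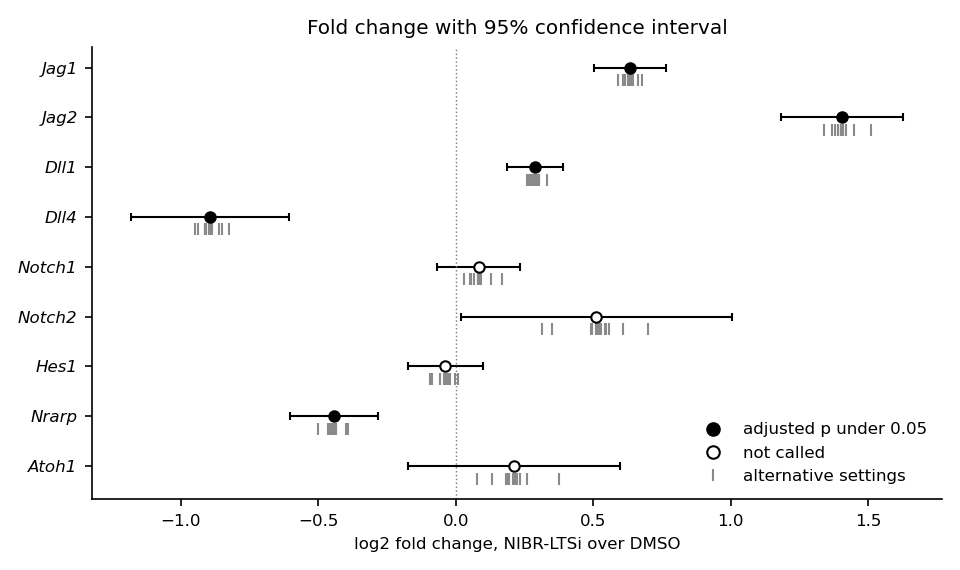
Log2 fold change of each gene (x axis, NIBR-LTSi over DMSO, 3 libraries per group) with its 95% confidence interval from the edgeR fit. Filled circles have an adjusted p under 0.05, and grey ticks are the values under 14 alternative settings. Jag2 (1.40) and Dll4 (-0.89) lie at the ends, and the ticks of the 5 called genes stay on the same side of 0.

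Jag2 (Entrez 16450; chromosome 12, 112907803 to 112929812) encodes a Jagged ligand and showed the largest change of the 9 genes. It was at 6.29, 4.94 and 5.38 CPM in DMSO replicates 1 to 3 and at 14.2, 14.8 and 15.3 CPM in NIBR-LTSi replicates 1 to 3. Every NIBR-LTSi library thus lay far above every DMSO library. The mean rose from 5.54 ± 0.69 to 14.8 ± 0.5 CPM (SD, n = 3), a log2FC of 1.40 ± 0.10 (SE; adjusted p = 6.49e-07), or 2.65-fold with a 95% interval of 2.27 to 3.09.

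Its relative Jag1 (Entrez 16449; chromosome 2, 137081451 to 137116520), a ligand that endothelium also makes, started from a higher level. It was at 24.2, 22.3 and 24.8 CPM with DMSO and 36.8, 36.2 and 37.7 CPM with NIBR-LTSi. The libraries within each group were close together and the groups did not overlap. The log2FC was 0.63 ± 0.06 (adjusted p = 5.70e-06), or 1.55-fold (95% interval 1.42 to 1.7).

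The Delta ligand genes went opposite ways. Dll1 (Entrez 13388; chromosome 17, 15367354 to 15376932), a marker of early secretory progenitors, was at 57.9, 54.8 and 57.3 CPM with DMSO and 67.1, 69.3 and 71.3 CPM with NIBR-LTSi. All 3 treated libraries were above the controls, by a small margin (log2FC 0.29 ± 0.05, adjusted p = 3.99e-04; 1.22-fold, 95% interval 1.14 to 1.31). Dll4 (Entrez 54485; chromosome 2, 119325784 to 119335666), which acts with Dll1 in keeping gut progenitors undifferentiated, was at 5.77, 5.78 and 6.19 CPM with DMSO and 3.41, 2.82 and 3.33 CPM with NIBR-LTSi. It was lower in every treated library, with a log2FC of -0.89 ± 0.13 (adjusted p = 1.93e-04), or 1.86-fold lower (95% interval 0.441-fold to 0.657-fold of the DMSO level). Dll4 is the least counted of the 4 ligands, with 605 counts over the 6 libraries, and counting error alone gives a coefficient of variation of 8.90% per DMSO library and 11.5% per NIBR-LTSi library. Endothelium also expresses Dll4: its 5 markers summed to 0.641 to 0.803 CPM with DMSO and 0.329 to 0.655 CPM with NIBR-LTSi. Of these, Cdh5, Kdr and Emcn were at 0 and Tek had 18 counts, while Pecam1, with 62 counts, had 0.601, 0.611 and 0.614 CPM with DMSO and 0.258, 0.491 and 0.219 CPM with NIBR-LTSi and was not called (adjusted p = 0.0833). Its part in the Dll4 difference was not tested.

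**Figure D2:**
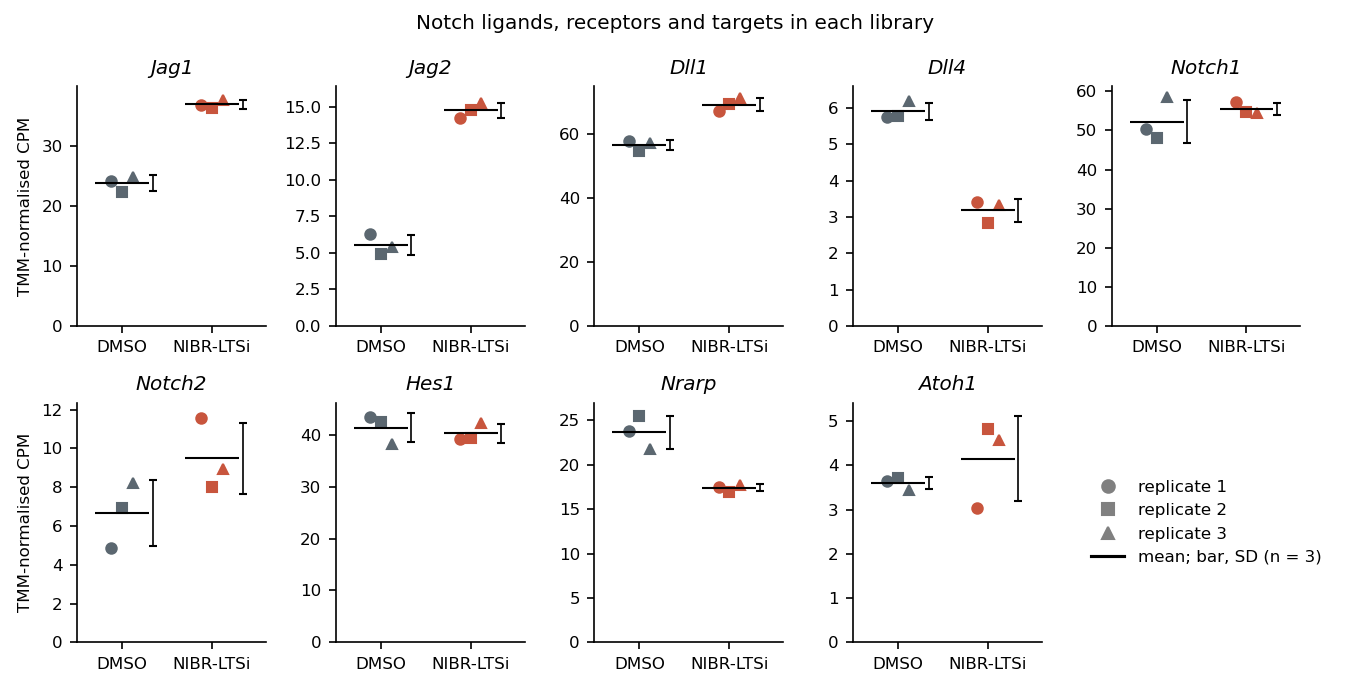
TMM-normalised CPM (y axes from 0) of the 9 genes in each of the 6 libraries, with symbols for replicates, a line for the group mean and a bar for the SD (n = 3). The groups are apart in Jag1, Jag2, Dll1, Dll4 and Nrarp and overlap in Notch1, Notch2, Hes1 and Atoh1.

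To compare the ligands with each other, CPM were divided by gene width in kilobases (RPKM). With DMSO the order was Dll1 at 13.4 ± 0.4, Jag1 at 4.08 ± 0.23, Dll4 at 1.53 ± 0.06 and Jag2 at 0.902 ± 0.112 RPKM, and neighbours in this order were separated by more than their SD. With NIBR-LTSi, Dll1 (16.4 ± 0.5) and Jag1 (6.34 ± 0.13) kept their places, and Jag2 (2.40 ± 0.08) stood above Dll4 (0.827 ± 0.082). Within a library, where scaling cancels, the RPKM ratio of Jag2 to Dll4 was 0.684, 0.537 and 0.546 in the DMSO libraries and 2.62, 3.28 and 2.88 in the NIBR-LTSi libraries. Jag2 was thus below Dll4 in every DMSO library and above it in every NIBR-LTSi library. The ratio of Dll1 to Dll4 was 8.45 to 9.16 with DMSO and 18 to 22.4 with NIBR-LTSi.

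The Jagged genes together made up 25.4%, 24.2% and 25.3% of the summed ligand RPKM with DMSO and 34%, 33.5% and 33.5% with NIBR-LTSi. The shares did not overlap and differed by 8.69 percentage points (exact two-sided permutation test, p = 0.10, the smallest that 3 against 3 libraries allow). Dll1 remained the most abundant ligand in every library, at 66.8% to 68.0% with DMSO and 62.6% to 63.7% with NIBR-LTSi, although its own level rose. The summed ligand level was 19.9 ± 0.7 RPKM with DMSO and 26.0 ± 0.7 RPKM with NIBR-LTSi.

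**Figure D3:**
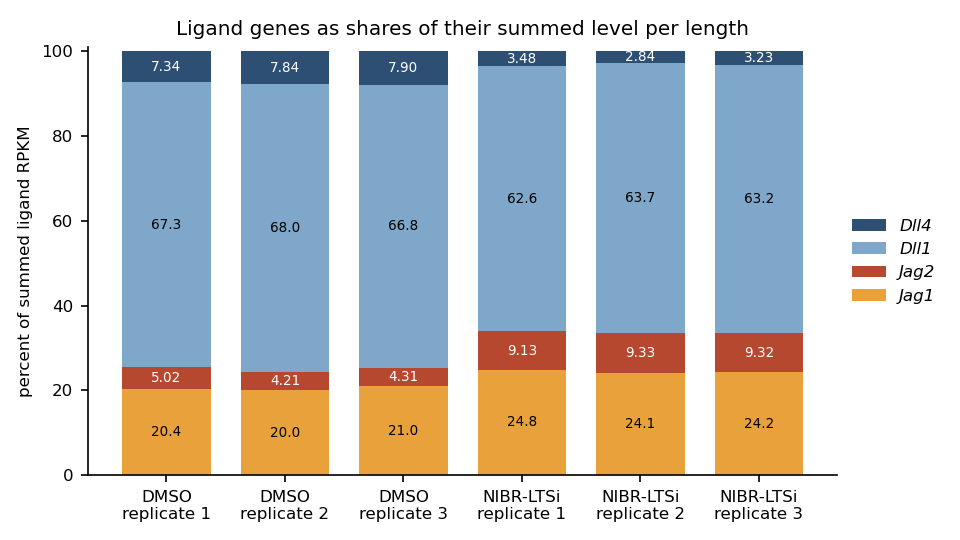
Share of the summed RPKM of the 4 ligand genes (y axis, percent) that each makes up in every library (bars). Jag1 and Jag2 take 33.5% to 34% in the NIBR-LTSi libraries and 24.2% to 25.4% in the DMSO libraries, and Dll4 takes 2.84% to 3.48% against 7.34% to 7.90%.

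Neither receptor gene was called. Notch1 (Entrez 18128; chromosome 2, 26457902 to 26503822), the main Notch receptor of crypt progenitors, was at 50.4, 48.0 and 58.4 CPM with DMSO and 57.3, 54.7 and 54.4 CPM with NIBR-LTSi. DMSO replicate 3 was the highest of all 6 libraries, and the groups overlapped (log2FC 0.08 ± 0.07, adjusted p = 0.357; 95% interval 0.955-fold to 1.18-fold). Without that library the log2FC was 0.17 (adjusted p = 0.0278), while omitting another of the DMSO libraries gave 0.0556 (replicate 1) and 0.0289 (replicate 2) and omitting NIBR-LTSi replicate 1 gave 0.0531 (adjusted p = 0.648, 0.775 and 0.631). Notch2 (Entrez 18129; chromosome 3, 98013538 to 98150367), the paralogue that acts beside Notch1 in the crypt, was at 4.85, 6.94 and 8.22 CPM with DMSO and 11.6, 8.02 and 8.92 CPM with NIBR-LTSi. It had the widest spread of the 9 genes in DMSO, with a coefficient of variation of 25.5%, against 8.45% from counting error. Its log2FC was 0.51 ± 0.21 (adjusted p = 0.0910), and 0.70 without DMSO replicate 3 (adjusted p = 0.0265). It was 0.31 without DMSO replicate 1 (adjusted p = 0.188) and 0.35 without NIBR-LTSi replicate 1 (adjusted p = 0.191). Its 95% interval of 1.01-fold to 2.01-fold is for this gene alone, unadjusted for the other tests. Per length, Notch1 was 5.24 to 7.88 times Notch2 in the DMSO libraries and 3.75 to 5.17 times in the NIBR-LTSi libraries.

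The Notch-induced genes differed from each other. Nrarp (Entrez 67122; chromosome 2, 25180758 to 25183339), a feedback inhibitor that binds the Notch intracellular domain complex, was at 23.8, 25.5 and 21.8 CPM with DMSO and 17.5, 17.0 and 17.7 CPM with NIBR-LTSi. All treated libraries lay below all controls, and the log2FC was -0.44 ± 0.07 (adjusted p = 4.26e-04), or 1.36-fold lower (95% interval 0.659-fold to 0.821-fold of the DMSO level). Hes1 (Entrez 15205; chromosome 16, 30065357 to 30067796), the repressor of Atoh1, was at 43.4, 42.5 and 38.2 CPM with DMSO and 39.1, 39.4 and 42.3 CPM with NIBR-LTSi. The groups overlapped throughout (log2FC -0.04 ± 0.06, adjusted p = 0.664), and the log2FC was 0.01 when scaled by library totals only. The 95% interval, which rests on the spread between these libraries, was 0.886-fold to 1.07-fold. Within libraries the RPKM ratio of Hes1 to Nrarp was 2.71, 2.47 and 2.61 with DMSO and 3.32, 3.44 and 3.55 with NIBR-LTSi (exact two-sided permutation test, p = 0.10, the smallest possible), a ratio that does not depend on the scaling.

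Atoh1 (Entrez 11921; chromosome 6, 64729125 to 64731245), the secretory lineage factor, was at 3.64, 3.72 and 3.45 CPM with DMSO and 3.05, 4.83 and 4.57 CPM with NIBR-LTSi. NIBR-LTSi replicate 1 was the lowest of all 6 libraries and the other treated libraries were the highest. The log2FC was 0.21 ± 0.18 (adjusted p = 0.361), with a 95% interval of 0.888-fold to 1.51-fold. With 59 to 125 counts per library, counting error gave a coefficient of variation of 11.4% in DMSO libraries, and the measured one was 3.92% with DMSO and 23.2% with NIBR-LTSi. Leaving out NIBR-LTSi replicate 1 gave a log2FC of 0.38 (adjusted p = 0.0633), leaving out replicate 2 gave 0.0794 (adjusted p = 0.793) and leaving out replicate 3 gave 0.13 (adjusted p = 0.647).

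Of the wider pathway, 57 further genes were listed, and 43 of them were tested: 11 rose and 10 fell (48.8% called, beside 42.0% of all tested genes), with a median log2FC of 0.03. DESeq2 called 7 of them higher, and without NIBR-LTSi replicate 2 or 3 there were 7 and 6. The number lower was 7, 7 and 8 under these settings. Over all genes, DESeq2 called 2154 of 13907 higher, against 2866 of 12592 in the main test. Without NIBR-LTSi replicate 2 or 3, 2201 of 12750 and 2310 of 12648 were higher. Genes that glycosylate the receptor were called in 6 of 6 tested cases, beside 42.0% of all tested genes. Of the 6, 4 rose, beside 22.8% of all tested genes, and 2 fell, beside 19.2%. The receptor carries O-fucose and O-glucose, and further enzymes extend each sugar. The tested fringe enzymes, which extend O-fucose on Notch and tune which ligands it answers, fell: Lfng was at 1.96, 2.22 and 2.17 CPM with DMSO and 0.878, 1.10 and 1.13 CPM with NIBR-LTSi (log2FC -1.01 ± 0.23, adjusted p = 0.00363), and Rfng fell from 23.7 ± 1.7 to 19.3 ± 1.3 CPM (-0.29 ± 0.08, adjusted p = 0.00846). The other 4 tested genes rose: Pofut1, which adds O-fucose, from 52.7 ± 4.4 to 64.0 ± 2.5 CPM (0.28 ± 0.06, adjusted p = 0.00365), Gxylt1, a xylosyltransferase that extends O-glucose, from 30.3 ± 1.2 to 38.6 ± 1.1 CPM (0.35 ± 0.06, adjusted p = 4.01e-04), Poglut1 (0.25), which adds O-glucose, and Xxylt1 (0.29), another xylosyltransferase of that chain. The Poglut1 call was lost in 9 of the 14 alternatives, among them every omitted library except NIBR-LTSi replicate 1 (adjusted p up to 0.231). That of Xxylt1 was lost on omitting replicate 1 or 3 of either group and in DESeq2 (up to 0.103).

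On the ligand-sending side, 2 ubiquitin ligases that make ligands active by endocytosis rose: Neurl1b was at 71.0, 69.0 and 70.5 CPM with DMSO and 97.2, 96.8 and 94.8 CPM with NIBR-LTSi (log2FC 0.46 ± 0.04, adjusted p = 3.99e-06), and Mib1 rose from 73.8 ± 4.4 to 92.8 ± 4.7 CPM (0.33 ± 0.06, adjusted p = 4.87e-04). Numb, an endocytic adaptor that restrains Notch in the receiving cell, fell from 182 ± 3 to 140 ± 7 CPM (-0.38 ± 0.04, adjusted p = 3.09e-05), and Dtx3l, a Deltex-family ligase, fell 1.27-fold. In all, 4 of 11 tested genes of this group rose, beside 22.8% of all tested genes, and 2 fell, beside 19.2%. The small rises of the ligase genes Itch (0.17) and Dtx4 (0.17) were lost without NIBR-LTSi replicate 3 (adjusted p = 0.0678) and without NIBR-LTSi replicate 2 (0.0586), respectively.

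Among 9 tested genes of receptor cleavage, 3 fell and 1 rose, which makes 44.4% called, near the 42.0% of all tested genes. Furin, which cuts the receptor during its export, fell from 150 ± 4 to 124 ± 3 CPM (log2FC -0.27 ± 0.04, adjusted p = 2.24e-04). Psenen, a gamma-secretase subunit, was lower (-0.31) and the sheddase gene Adam17 higher (0.20). The Psenen call was lost without DMSO replicate 2 or NIBR-LTSi replicate 1 or 2 (adjusted p up to 0.153). It was also lost in DESeq2 (0.0773), in limma-voom (0.0735) and with library totals only (0.08). The Adam17 call was lost without DMSO replicate 2 or NIBR-LTSi replicate 2 or 3 (up to 0.117) and in DESeq2 (0.0833).

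Of the nuclear complex 3 of 14 genes were called, or 21.4%, beside 42.0% of all tested genes; the difference was not tested. Rbpj, its DNA-binding core and named here after its value was seen, was at 15.8, 17.2 and 17.0 CPM with DMSO and 16.5, 18.6 and 17.8 CPM with NIBR-LTSi (log2FC 0.09 ± 0.07, adjusted p = 0.385). The acetyltransferase gene Kat2a rose from 22.0 ± 0.7 to 29.4 ± 1.5 CPM (0.42 ± 0.06, adjusted p = 2.46e-04), while its paralogue Kat2b was lower (-0.18). The Kat2b call was lost when any of replicates 2 and 3 of each group was left out (adjusted p up to 0.106). It was also lost in DESeq2 (0.0507) and with library totals only (0.0839). The co-activator gene Maml2 was higher from a very low level of 0.360 ± 0.057 CPM (2.06-fold, adjusted p = 0.0316), a call lost when any library but NIBR-LTSi replicate 1 was left out (up to 0.135) and in DESeq2 (0.213).

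Other receptor, ligand and target genes were scarcely expressed, except Olfm4. Of 6 further receptors and ligands 2 were tested, and Notch4 was lower (1.5 ± 0.5 and 0.809 ± 0.215 CPM, adjusted p = 0.0438), a call lost when any library but DMSO replicate 2 was left out (adjusted p up to 0.254). The Notch4 call was also lost in DESeq2 (0.118), in limma-voom (0.0578) and with library totals only (0.0591). Of 6 further Notch-induced genes only Olfm4 was tested, since Hes5, Hes7, Hey1 and Hey2 had 1 to 14 counts over all libraries and Heyl none. Olfm4, a stem cell gene that depends on Notch in the crypt, was at 17.8, 17.9 and 16.6 CPM with DMSO and 10.1, 7.77 and 8.99 CPM with NIBR-LTSi (log2FC -0.97 ± 0.10, adjusted p = 8.63e-06).

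**Figure D4:**
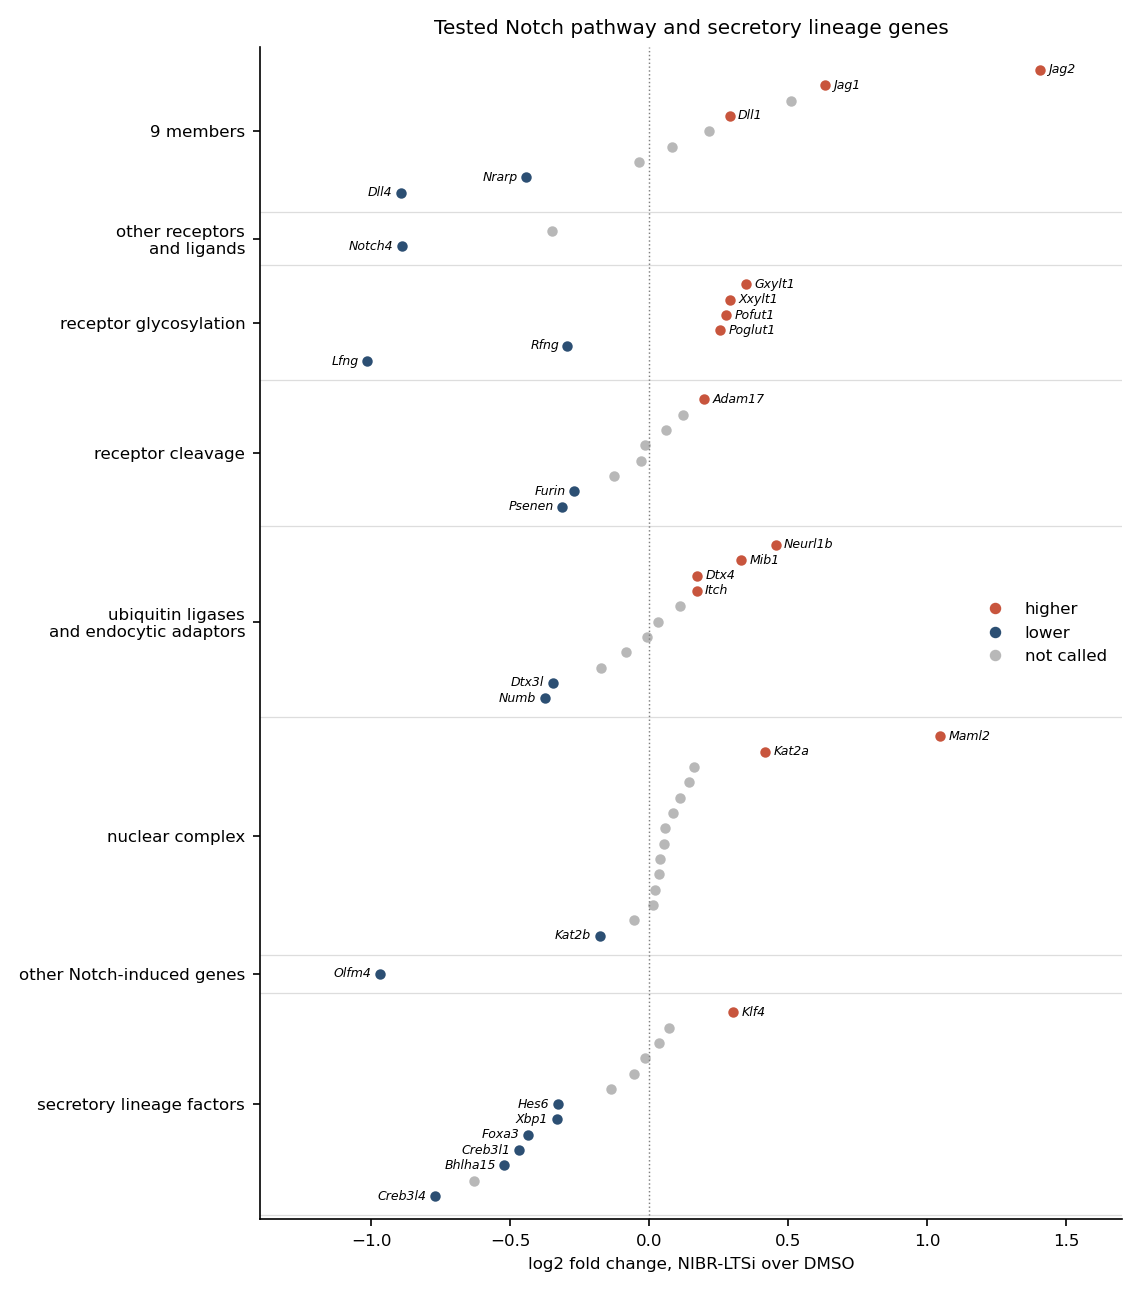
Log2 fold change (x axis, NIBR-LTSi over DMSO) of the tested Notch pathway genes and secretory lineage factors reported here, 1 point per gene, grouped by role; called genes are coloured and named. Ligand and glycosylation genes are spread to both sides, most genes of the nuclear complex lie near 0, and 6 secretory lineage factors are called lower.

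Among the transcription factors of the secretory lineages, 6 of 13 tested genes fell (19.2% of all tested genes did), 1 rose (22.8% of all did) and 6 were not called, with a median log2FC of -0.33. Creb3l4, a secretory-pathway transcription factor, was at 4.85, 4.89 and 4.30 CPM with DMSO and 2.74, 2.66 and 2.81 CPM with NIBR-LTSi (log2FC -0.77 ± 0.14, adjusted p = 9.10e-04). Its relative Creb3l1 fell 1.38-fold, and Xbp1, which expands the endoplasmic reticulum of secretory cells, fell from 339 ± 17 to 269 ± 6 CPM (-0.33 ± 0.04, adjusted p = 5.62e-05). Hes6, a HES-family gene of secretory progenitors, fell 1.26-fold. Foxa3 (-0.43) and Bhlha15 (-0.52) were also lower. Omitting DMSO replicate 1 or 3 ended the Foxa3 call, as did omitting NIBR-LTSi replicate 2 or 3 (adjusted p up to 0.0799), and the Bhlha15 call, at an adjusted p of 0.04999, was lost on omitting replicate 1 or 2 of either group (up to 0.201). Over all 14 alternatives, the Foxa3 call was lost in 5 and the Bhlha15 call in 9. The goblet and epithelial factor Klf4 rose from 58.3 ± 1.0 to 71.9 ± 3.3 CPM (0.30 ± 0.05, adjusted p = 3.49e-04). Neurog3, the endocrine progenitor factor, named after its value was seen, had 1.76, 2.28 and 1.51 CPM with DMSO and 1.14, 1.02 and 1.39 CPM with NIBR-LTSi (adjusted p = 0.0649).

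Marker sums of epithelial cell types are given beside these values. The marker calls in brackets stand beside 22.8% of all tested genes called higher and 19.2% called lower. The summed CPM of 6 Paneth markers was 365 to 395 with DMSO and 278 to 301 with NIBR-LTSi (2 higher, 3 lower). That of 7 enteroendocrine markers was 464 to 489 and 372 to 387 (1 higher, 4 lower), so that both sums were lower in every treated library. Most of the Paneth sum was Itln1 (276 ± 13 and 208 ± 9 CPM), and most of the enteroendocrine sum was Chgb (304 ± 9 and 214 ± 6 CPM). The Paneth markers Mmp7 (log2FC 0.675) and Ang4 (0.417) and the enteroendocrine marker Gcg (0.626) were the ones called higher. That of 7 goblet markers was 2860 to 3230 and 3240 to 3570 (2 higher, 1 lower), while their median log2FC was -0.11. The largest part of the goblet sum was Fcgbp (1735 ± 219 and 1592 ± 124 CPM), and the largest rise among the 7 was that of Clca1. The goblet gene Clca1 rose from 234 ± 4 to 792 ± 4 CPM and Zg16 from 264 ± 16 to 350 ± 12 CPM, Spink4 fell from 213 ± 10 to 129 ± 8 CPM, and Muc2, Fcgbp, Tff3 and Agr2 were not called (log2FC -0.40 to -0.11). The sum of 7 enterocyte markers was 33100 to 34100 and 26700 to 28900 (2 higher, 5 lower), and that of 5 crypt base stem cell markers 149 to 159 and 158 to 170, which overlap (1 higher, 2 lower; median log2FC -0.36). Most of the stem cell sum was Smoc2, which rose from 127 ± 4 to 146 ± 6 CPM, while Olfm4 and Lgr5 fell. Lgr5, the receptor that defines crypt base stem cells, was at 3.36, 3.39 and 2.41 CPM with DMSO and 2.01, 1.64 and 2.01 CPM with NIBR-LTSi (log2FC -0.69, adjusted p = 0.0170). Its call was lost on omitting replicate 1 or 2 of DMSO or replicate 2 of NIBR-LTSi, and in DESeq2 (adjusted p up to 0.0831). These markers were named after their values were seen. The sum of 5 tuft cell markers was 3.97 to 4.49 and 3.46 to 4.87, with none called and Il25 at 0. The part of these marker levels in the Notch gene values was not tested.

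Over the 6 libraries, the 3 genes whose log2 CPM followed Jag2 most closely were Nsf (Pearson r = 0.999), Thsd4 (0.999) and Fam160a1 (0.998), out of 9851 genes with a mean of at least 5 CPM. Those closest to Dll4 were Fam20b (0.9997), Ptpa (0.999) and Galnt1 (0.997). With only 2 groups, any gene that changes cleanly with treatment scores highly: 965 genes had r over 0.95 with Jag2 and 722 with Dll4. The likeness is in pattern and not in size, as Thsd4 rose by 2.37 on the log2 scale, Nsf by 0.35 and Fam20b fell by 0.25.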

How the data were processed

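RNA was sequenced from 6 organoid libraries. Per the labels' protocols, organoids were digested to single cells, RNA was column-purified and 200 ng entered a stranded mRNA kit. The authors deposited whole-number read counts per gene with a gene width; per the submitters' processing notes the build was mm10 and edgeR was used. For aligner, counting tool and the strand setting of the counting, nothing is given in the sources used here. The kit was stranded, but whether the counting kept reads of overlapping antisense genes apart is not known.

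Counts were scaled with TMM factors, filtered with filterByExpr (12592 genes left) and tested in R 4.3.3 with edgeR 4.0.16 (glmQLFit with robust = TRUE, glmQLFTest; the quasi-likelihood test, which is two-sided), group as the only term, with Benjamini-Hochberg adjustment over all tested genes at 0.05. All adjusted p-values are from this test unless another tool is named. SE was derived as |log2FC|/√F, and intervals use the moderated degrees of freedom. CPM use TMM-scaled library totals, and RPKM are CPM per kilobase of deposited width. That width equals the summed exon length in GENCODE M21 (GRCm38, the assembly of mm10) for 7 of the 9 genes. Jag2 is among the exceptions, with a deposited width of 6139 bases against 6965 exon bases. Its RPKM, its ratio to Dll4 and the Jagged share use the deposited width. Similarity between genes used log2 CPM with a prior count of 2. Gene positions are 1-based, from RefSeq GRCm38.p6.

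The test was tried on simulated counts with known changes. No pair of libraries within a group agreed within sampling noise (chi-square per degree of freedom 4.57 to 11.8).

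All 9 members were described whatever their values; of the other listed genes those called are named, except that some listed genes are counted in their lists and not reported here by name. The members, lists and tests were chosen with earlier results of these data known, and the HES1, ATOH1, RBPJ and TEAD cores after them. Alternatives were DESeq2 1.42.0, limma-voom (limma 3.58.1), scaling by DESeq2 size factors, by upper quartiles or by totals alone, testing without the low-count filter or with a minimum of 1 CPM in 3 libraries, a block for replicate number, and each library left out.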

Additional observations from a re-analysis of the deposited data

How the results depend on the processing

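The calls of Jag1, Jag2, Dll1, Dll4 and Nrarp kept their direction and stayed called in all 14 alternatives, and Atoh1 stayed not called in all 14. Notch1 and Notch2 were called in 1 alternative each, the one without DMSO replicate 3, so the number of members higher ranged from 3 to 5 when 1 library was left out, and the number lower stayed at 2. The direction of Hes1 turned with library totals only (log2 fold change 0.00717). Among the other pathway genes the number higher, 11, was 7 in DESeq2 and 6 to 10 when 1 library was left out, and the number lower, 10, was 7 to 9. Of 28 called pathway and lineage genes, 17 stayed called in every alternative and 11 were lost in at least 1. Without division by width, the Jagged share differed by 9.77 percentage points, and without 1 library by 8.31 to 8.90. The cause of these changes was not tested.

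The replicate number as a block changed none of the 9 members' calls, and ended those of Notch4 (adjusted p = 0.0798), Poglut1 (0.0786), Maml2 (0.0642) and Bhlha15 (0.0840); over all genes it gave 2687 higher and 2258 lower, against 2866 and 2421. Deviations from the group means correlated at 0.0482, -0.296 and 0.562 between libraries of the same number, and not every library correlated best with its own number, so the numbers were not read as pairs. With the block, the sign-flip test of the Jagged share gave p = 0.25, the smallest that 3 pairs allow (exact). Library totals only moved the median log2 fold change of all genes from 0.02 to 0.06. Atoh1 (533 counts in all), Dll4 (605) and Notch2 (1084) have the fewest counts of the 9 genes and the largest SEs.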

Other observations

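A long noncoding RNA gene on the strand opposite to Dll4 changed with it. Gm14207 (Entrez 100043609) shares 214 of the 3852 exon bases of Dll4 in GENCODE M21. It was at 3.72, 3.72 and 4.39 CPM with DMSO and 2.32, 1.76 and 1.61 CPM with NIBR-LTSi, and lower in all 3 treated libraries (log2 fold change -1.07 ± 0.19, adjusted p = 7.68e-04; -1.24 to -0.97 over 14 alternatives, called in each). It was chosen after its values were seen. Since the strand setting of the counting is not given, reads in the shared bases cannot be assigned with certainty; whether they contribute to either fall was not tested.

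Overlapping annotation touches other members as well. Antisense transcripts share 2051 of the 2582 exon bases of Nrarp (Gm38287), 867 of the 4219 of Dll1 (A930024N18Rik) and 1068 of the 14232 of Notch1 (0610009E02Rik). The last of these had 93 counts over the 6 libraries, against 7294 for Notch1, and was not called (adjusted p = 0.515). Values for Gm38287 and A930024N18Rik were not analysed here.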
